A study of Arabidopsis thaliana with 4 samples.

Results

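The acyl-ACP desaturase family of Arabidopsis thaliana has 7 loci in the rule used here, and 5 of them are read by 4 probe sets of the array, out of 22810 probe sets in all. The members are the probe sets that the platform's gene table gives to these loci. AT3G02630, AT5G16230 and AT5G16240 each have a probe set of their own. AT3G02610 and AT3G02620 share 1 probe set, which matches both, so their transcripts cannot be told apart. No probe set is named for AT2G43710 (SSI2) or AT1G43800 (FTM1), and these 2 loci were not analysed here. The family was chosen by the signals of AT3G02630 in this same comparison, so the genotype values of the members below are a description without a test.

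The RNA came from rosette leaves of plants 3 weeks old, grown under long days (16 h light, 8 h dark). AAF-OX, a transgenic line in the Col-0 background that overexpresses AAF, was set against Col-0, the wild type. Each genotype has 2 Affymetrix arrays, and each replicate number is read here as 1 of the 2 separately run sets, so that a set holds 1 AAF-OX and 1 Col-0 array. The promoter of the transgene, the number of transgenic lines and the number of plants per array are not given in the sources used here.

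Acyl-ACP desaturases are soluble enzymes of the plastid stroma that place a double bond in a saturated fatty acid while it is still bound to acyl carrier protein (ACP). They take electrons from ferredoxin and use a di-iron centre to activate oxygen. Their main product, oleoyl-ACP, is either used inside the plastid or released as oleic acid for the membrane lipids, waxes and oils made outside it. SSI2 is known as the main isoform of leaves, and plants that lack it are dwarfed, with raised salicylic acid defences and weakened jasmonate defences. Most of the other members are known from work on seeds.

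AAF, taken here as locus AT1G66330, had signals of 7442 and 7706 in AAF-OX, against 760 and 1337 in Col-0 (sets 1 and 2 in that order), so the overexpression was visible in both sets. Median signals per array were 169.0 to 180.2, and signals under 50 made up 30.1% to 31.4% of an array. Of the leaf markers listed, 1 of 7 had a named probe set, the Rubisco activase gene RCA, at 23017 and 27154 in AAF-OX and 25135 and 28152 in Col-0. Other tissues were read by single markers at most. The root gene PYK10, a beta-glucosidase of endoplasmic reticulum bodies, had 629 and 1527 in AAF-OX and 1075 and 1974 in Col-0. FMA, a guard cell transcription factor, had 306 and 193 in AAF-OX and 360 and 289 in Col-0. The listed flower, seed and vascular markers had no named probe set. The part of tissue make-up in the results below was not tested, and in whole leaves fewer cells of a type and less RNA per cell cannot be told apart.

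AT3G02630 encodes a desaturase known to work, in part redundantly with SSI2, on stearoyl-ACP in developing seeds. Its signal was 161.8 in set 1 and 222.4 in set 2 in AAF-OX, against 767 in set 1 and 1482 in set 2 in Col-0. Both AAF-OX arrays lay far below both Col-0 arrays, and the Col-0 arrays differed more from each other than the AAF-OX arrays did. The group means were 192.1 ± 42.8 in AAF-OX and 1124 ± 505 in Col-0 (SD, n = 2 each). Here and below, differences between genotypes are AAF-OX minus Col-0 in log2(signal + 50), where the added 50 damps the noise of dim probe sets and understates their changes. On this scale AT3G02630 was lower by 3.86-fold in set 1 (log2 -1.95) and by 5.62-fold in set 2 (log2 -2.49), or -2.22 over both. Of 13592 tested probe sets, 0 had a lower difference than AT3G02630 over both sets, 1 did in set 1 and 0 did in set 2. The family was chosen by this gene in this comparison, so nothing is read from its rank. Its 2 sets disagreed by 0.54, a gap that 10.8% of all tested probe sets reached, while the median gap was 0.20.

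AT5G16240, a second desaturase known from the supply of oleic acid in seeds, lay on the same side by a small amount. Its signal was 173.8 and 225.0 in AAF-OX in sets 1 and 2, against 254.1 and 285.9 in Col-0. The groups did not overlap, although the AAF-OX array of set 2 and the Col-0 array of set 1 lay close together. The means were 199.4 ± 36.2 in AAF-OX and 270.0 ± 22.5 in Col-0 (SD, n = 2 each). The difference was -0.44 in set 1 and -0.29 in set 2, or -0.37 over both, which is 1.29-fold lower. Of all tested probe sets, 3.18% had a lower difference than AT5G16240, and 61.0% had a gap between the sets at least as large as its 0.15.

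The remaining members were dim. AT5G16230 is known as a desaturase of palmitoyl-ACP, active in the seed's endosperm. Its signal was 22.8 and 43.6 in AAF-OX in sets 1 and 2, against 29.0 and 45.2 in Col-0. Within each set the genotypes were nearly level, with differences of -0.12 in set 1 and -0.02 in set 2, and the groups overlapped. The probe set shared by AT3G02610, known as another palmitoyl-ACP desaturase of the endosperm, and AT3G02620 read 29.4 and 5.6 in AAF-OX, against 46.2 and 5.2 in Col-0. Its differences were -0.28 in set 1 and 0.01 in set 2, and its arrays split by set and not by genotype. Both probe sets were too dim for the test, so no genotype difference was tested for either.

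**Figure D1:**
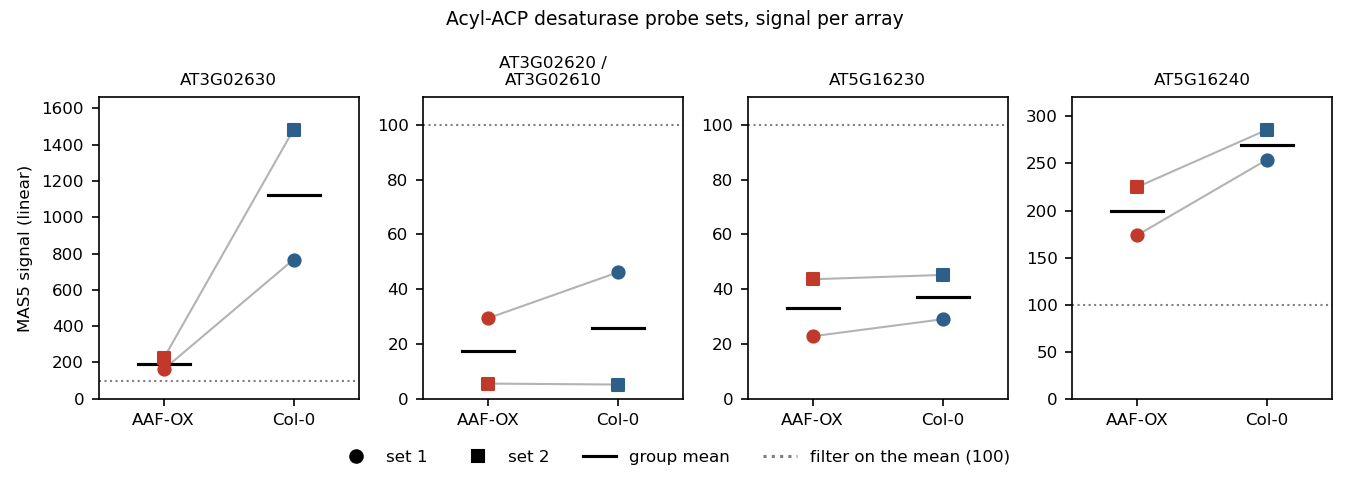
MAS5 signal (linear scale from 0, a separate axis for each panel) of the 4 desaturase probe sets on the 4 arrays, with AAF-OX in red and Col-0 in blue, circles for set 1, squares for set 2, grey lines joining the arrays of a set and black bars for group means. AT3G02630 has AAF-OX signals of 161.8 and 222.4 against Col-0 signals of 767 and 1482, AT5G16240 has a small gap between groups, and the other 2 probe sets lie below the dotted line at a signal of 100.

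A mean signal of at least 100 over the 4 arrays was required for testing, and 2 of the 4 probe sets, those of AT3G02630 and AT5G16240, passed it. Both were lower in AAF-OX in both sets, which also held for 31.3% of all tested probe sets. Both had AAF-OX arrays below both Col-0 arrays, as had 10.9% of all tested probe sets. limma on genotype alone called 0 probe sets in all (0%, adjusted p under 0.05), with 117 of 13592 at an unadjusted p under 0.05. With the replicate number as a block, which removes the difference between the sets from the error, limma called 210 probe sets (1.55%), 182 on the higher side (1.34%) and 28 on the lower side in AAF-OX (0.206%). Since the family was chosen on AT3G02630 in this contrast, no call is given for the members, and these counts serve as background.

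**Figure D2:**
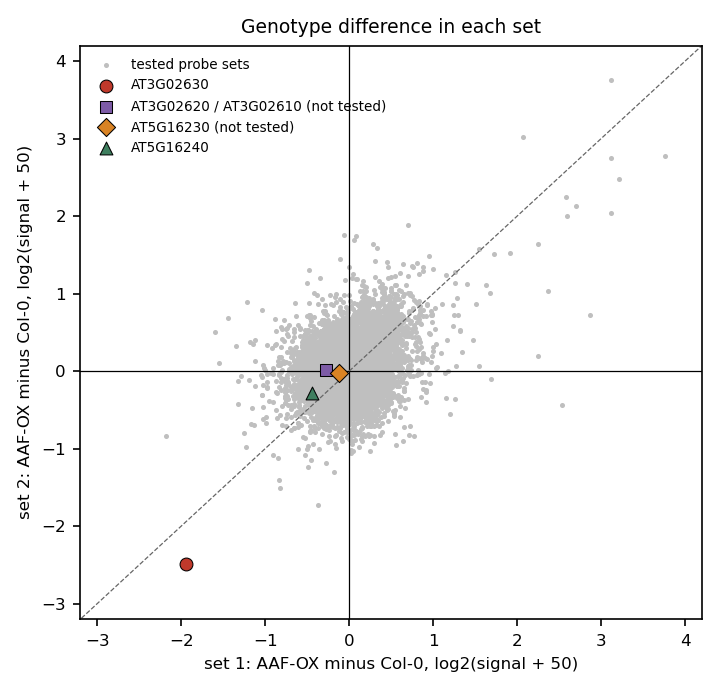
Difference between AAF-OX and Col-0 in log2(signal + 50) in set 1 (horizontal) and set 2 (vertical), with 13592 tested probe sets in grey, the desaturase probe sets as coloured symbols and a dashed line where both sets give the same difference. AT3G02630, at -1.95 and -2.49, lies apart from the cloud at the lower left, while AT5G16240 and the 2 dim probe sets lie inside it.

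The comparison of set 2 with set 1 was not used to choose the family, so it was tested, with genotype as a term in the model. AT3G02630 was higher in set 2, with 222.4 in AAF-OX and 1482 in Col-0, against 161.8 in AAF-OX and 767 in Col-0 in set 1. The difference, set 2 minus set 1, was 0.63 ± 0.16 (limma's moderated SE), or 1.55-fold, with limma's adjusted p = 0.00741. That SE borrows from the spread of other probe sets, while the gene's own difference was 0.36 within AAF-OX and 0.91 within Col-0. AT5G16240 differed by 0.22 ± 0.16 (limma's adjusted p = 0.311), with 0.30 within AAF-OX and 0.14 within Col-0. Thus 1 of 2 tested members was called, and it was higher. Among all tested probe sets 39.4% were called between sets, 17.3% higher and 22.0% lower in set 2, and 20.9% had a difference at least as large as that of AT3G02630. Without the genotype term the large genotype difference of AT3G02630 enters its error, and limma's adjusted p was 0.612.

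For AT3G02630 the difference between genotypes was thus larger than that between sets, but it chose the family, so nothing is read from this. AT5G16240 also differed more between genotypes (-0.37) than between sets (0.22), and the reverse held for the dim probe sets. The probe set of AT3G02610 and AT3G02620 was lower in set 2 by 0.52 within AAF-OX and by 0.80 within Col-0, which are differences of -0.52 and -0.80. AT5G16230 was higher in set 2 by 0.36 within AAF-OX and 0.27 within Col-0. Neither was tested, and both sizes depend on the added 50.

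The desaturases stand at the end of a chain of plastid enzymes. Genes of that chain and of other topics were read from lists of 134 genes in 10 groups. The other topics include wax and cutin, fatty acid beta-oxidation, hypoxia, seed oil and the ssi2 mutant. All listed genes are referred to as pathway genes below. Only 20 of the 134 listed genes had a probe set of their own in the gene table and 18 were tested, so most listed genes were not examined. With the replicate block, 3 of the 18 were called higher in AAF-OX and 0 lower, beside 1.34% and 0.206% of all tested probe sets. The 3 were PDF1.2, WSD1 and AT4G27450, from the lists on ssi2, wax and cutin, and hypoxia. PDF1.2 was listed with its rise in these arrays known, so nothing is read from the count. With genotype alone limma called 0 of the 18 (2 had an unadjusted p under 0.05). The median difference over the 18 genes was -0.05, beside -0.02 over all tested probe sets.

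In the list of plastid fatty acid synthesis, whose enzymes build the stearoyl-ACP that the desaturases use, 8 of 27 genes were tested and limma called 0 with the block, where 0 had an unadjusted p under 0.05. Their mean differences ran from -0.24 to -0.03, with a median of -0.13, though not each gene was lower in both sets. AT5G10160 and AT2G22230, entered in the list as the hydroxyacyl-ACP dehydratases, had the smallest unadjusted p. AT5G10160 had signals of 1232 and 1054 in AAF-OX, against 1239 and 1492 in Col-0 (-0.24, limma's adjusted p = 0.589 with the block). Its difference was -0.01 in set 1 and -0.48 in set 2. AT2G22230 had 897 and 1054 in AAF-OX, against 1047 and 1276 in Col-0 (-0.24, limma's adjusted p = 0.528 with the block). These differences were small beside the -2.22 of AT3G02630, but the family was chosen by that gene in this comparison, so nothing is read from that.

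The genes that take the chains from ACP differed in sign. FATB, a thioesterase that releases mainly saturated fatty acids, had 2748 and 3062 in AAF-OX, against 2121 and 2563 in Col-0 (0.31 ± 0.11, SE; limma's adjusted p = 0.264 with the block). FaTA, a thioesterase that prefers oleoyl-ACP, had 87.1 and 128.2 in AAF-OX, against 108.6 and 175.7 in Col-0 (-0.28 ± 0.20, SE; limma's adjusted p = 0.716 with the block). limma called 0 of the 4 tested genes of 9 in this list with the block, and 1, FATB, had an unadjusted p under 0.05. Of the 10 desaturases that act on membrane lipids or acyl-CoA, 1 had a probe set of its own in the gene table, AT3G15870. Its signals of 2.0 to 17.0 were too dim for a test.

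WSD1, a wax ester synthase of the epidermis, had signals of 283 and 363 in AAF-OX, against 152.5 and 191.7 in Col-0 (0.74 ± 0.16, SE; limma's adjusted p = 0.0456 with the block). It was the single tested gene of 16 in the wax and cutin list, and it was called in 3 of the 6 other settings run with the block that tested it. AIM1, of fatty acid beta-oxidation, was the single tested gene of 10 there and differed by 0.09 (limma's adjusted p = 0.860 with the block).

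In the list on hypoxia, a condition known to induce the family's FTM1, 2 of 14 genes were tested and 1 was called. AT4G27450 had signals of 3640 and 2514 in AAF-OX, against 1825 and 1453 in Col-0 (0.87 ± 0.11, SE; limma's adjusted p = 0.00388 with the block), and was called in 5 of 7 other settings with the block. CML38, a calmodulin-like protein, had 89.7 and 669.8 in AAF-OX, against 68.2 and 537.9 in Col-0 (0.27, limma's adjusted p = 0.626 with the block). The low-oxygen regulator AT3G10040 was under the filter, at 70.9 and 55.8 in AAF-OX and 107.9 and 33.5 in Col-0.

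Of 13 genes known from the genetics of the ssi2 mutant, 2 were tested. PDF1.2, a defensin whose induction is known to be impaired in ssi2, had 16932 and 1660 in AAF-OX, against 1204 and 200.5 in Col-0 (3.27, limma's adjusted p = 3.37e-06 with the block), but it was on the list with its rise in these arrays known and adds no independent evidence. SAG101, a partner of the immune regulator EDS1, had 260 and 225 in AAF-OX, against 289 and 151 in Col-0 (0.16, limma's adjusted p = 0.849 with the block), and its 2 sets had opposite signs. The lists for plastid membrane lipids, ferredoxins and seed oil had no gene with a probe set of its own in the gene table. That table leaves 8730 probe sets unnamed, so these genes were not examined.

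**Figure D3:**
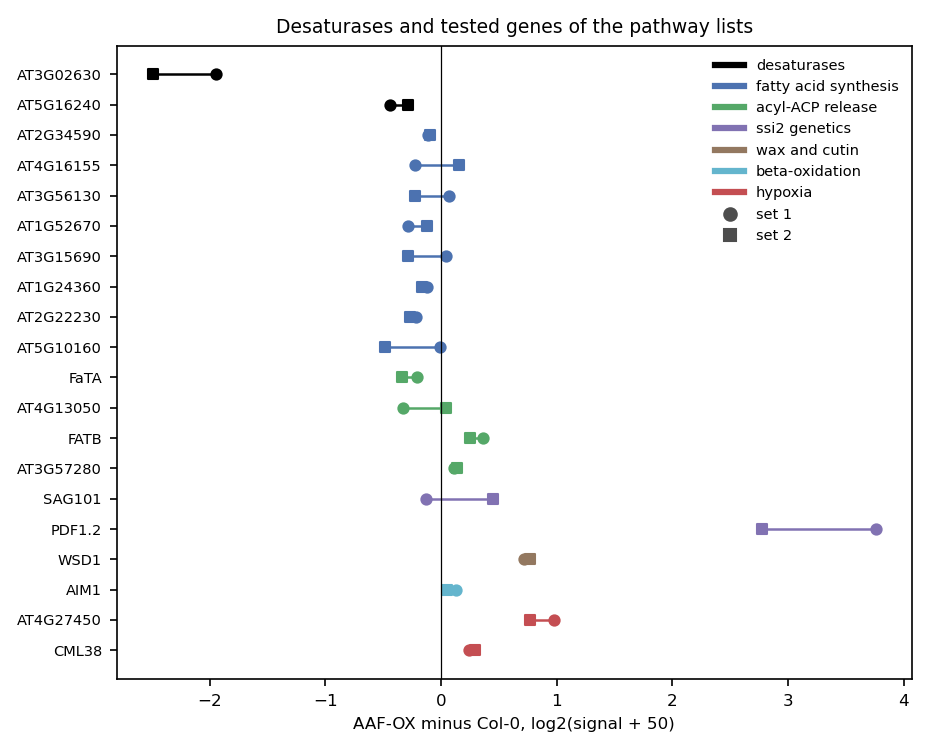
Difference between AAF-OX and Col-0 in log2(signal + 50) for the 2 tested desaturases (black) and the 18 tested genes of the pathway lists (coloured by list), with circles for set 1, squares for set 2 and a line joining them. AT3G02630 lies at -1.95 and -2.49, and the 8 fatty acid synthesis genes lie between -0.48 and 0.16. PDF1.2, AT4G27450 and WSD1 lie to the right of 0 in both sets.

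Between sets, 6 of the 18 pathway genes were called, 2 higher and 4 lower in set 2, beside 39.4% of all tested probe sets, and without the genotype term 4 were called. AT2G34590 and AT1G24360, entered as a plastid pyruvate dehydrogenase subunit and the ketoacyl-ACP reductase, were lower in set 2 by differences of -0.49 and -0.40 (limma's adjusted p = 0.00404 and 0.0113). AIM1 was higher in set 2 by 0.40 (limma's adjusted p = 0.0132) and CML38 by 2.34 (limma's adjusted p = 6.65e-07). PDF1.2 was lower by a difference of -2.82 (limma's adjusted p = 4.25e-07) and AT4G27450 by -0.42 (limma's adjusted p = 0.0115). Without the genotype term these last calls were lost, at limma's adjusted p = 0.142 for PDF1.2 and 0.404 for AT4G27450.

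Among 7301 other tested probe sets with 1 named gene, the patterns most like that of AT3G02630 over the 4 arrays were sought by the root mean square distance between centred log2 profiles. The nearest was AT2G33850, at a distance of 0.62, with signals of 806 and 1070 in AAF-OX, against 1491 and 2398 in Col-0. It shared the order of the 4 arrays with AT3G02630, low in AAF-OX and lowest in set 1, but its difference of -0.99 was smaller. AT4G29030, AT5G62360, AT4G30650 and AT4G28780 followed at distances of 0.75 to 0.76, with differences of -0.81 to -0.73. The gene was chosen for its large difference, so nothing is read from these distances.

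AT5G16240 had many close matches, as its pattern spans a small range. The 5 nearest, AT3G20430, AT1G79150, AT1G51400, AT1G29530 and AT2G40960, lay at distances of 0.01 to 0.03 and had genotype differences of -0.40 to -0.32. The distance is taken over 4 arrays that share genotype and set, and it says nothing about function.

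**Figure D4:**
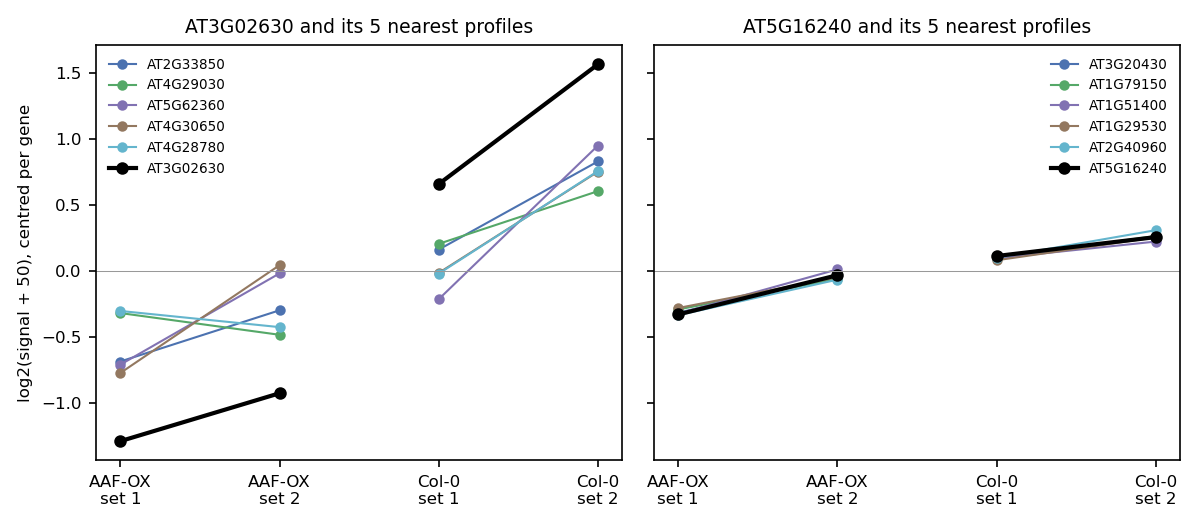
Centred log2(signal + 50) on the 4 arrays for AT3G02630 (left, black) and AT5G16240 (right, black) with their 5 nearest named genes in colour, AAF-OX arrays at the left and Col-0 arrays at the right of each panel. The genes nearest to AT3G02630, at distances of 0.62 to 0.76, are lower in AAF-OX within each set and have a smaller span. For AT5G62360 and AT4G30650 the AAF-OX array of set 2 lies above the Col-0 array of set 1, so their groups overlap. The genes nearest to AT5G16240 lie on top of it.

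AT3G02610, AT3G02620 and AT3G02630 follow each other on chromosome 3 with 0 annotated genes between them, and AT5G16230 and AT5G16240 lie on chromosome 5 with 1 between them. The 5 nearest measured and named genes on each side of both groups were read after the members' values had been seen. Around AT5G16240, the 10 neighbours had genotype differences of -0.32 to 0.15 with a median of -0.09, and 5 of them were lower in AAF-OX in both sets, beside 31.3% of all tested probe sets. The difference of AT5G16240, -0.37, lay just past the lowest of them, that of AT5G16250 at -0.32. Around AT3G02630, the 10 neighbours had differences of -0.49 to 0.14 with a median of -0.19, and 8 of them were lower in both sets. The lowest, AT3G02640, had -0.45 in set 1 and -0.53 in set 2, far from the values of AT3G02630. limma called 0 of the 20 neighbours with the replicate block (smallest adjusted p 0.120), where 3 had an unadjusted p under 0.05, and 0 with genotype alone, where 0 had.

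**Figure D5:**
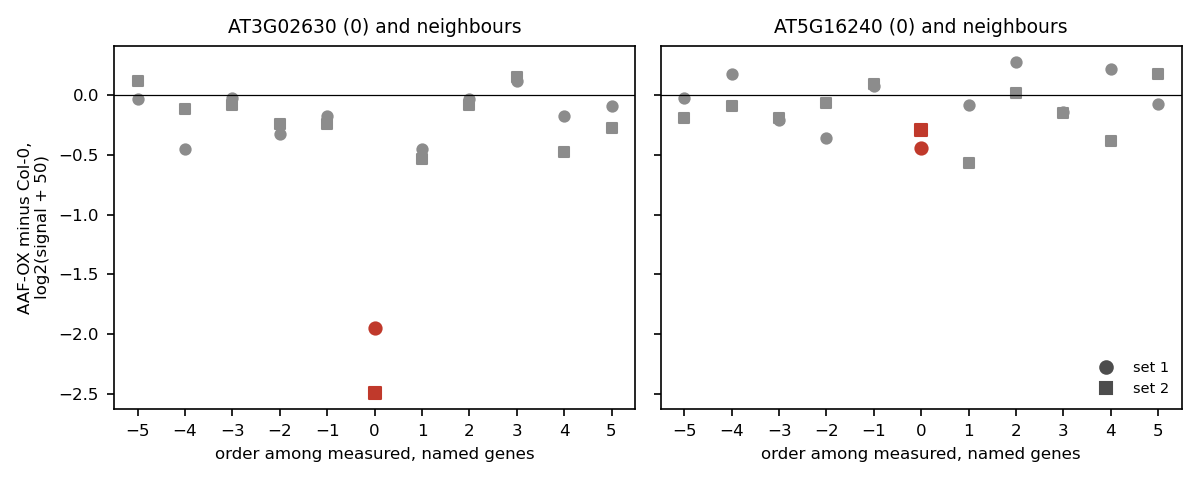
Difference between AAF-OX and Col-0 in log2(signal + 50) for the 5 nearest measured and named genes on each side (grey) of the desaturase genes on chromosome 3 (left, AT3G02630 in red at 0) and chromosome 5 (right, AT5G16240 in red at 0), with circles for set 1 and squares for set 2. AT3G02630 lies far below its neighbours in both sets, and the values of AT5G16240 lie within the range of its own in set 2 and below it in set 1.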

How the data were processed

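The authors hybridised biotin-labelled total RNA to Affymetrix arrays, per the labels' protocols. The deposited table holds intensity on a linear scale, made with MAS5 per the submitters' processing notes, which name no version, with a 2%-trimmed mean of 500.04 to 500.05 on each array. Control probe sets were left out, log2(signal + 50) was taken, and the 13592 probe sets whose mean reached 100 were tested (9154 were not). limma 3.58.1 in R 4.3.3 (lmFit and trended eBayes, two-sided tests, p adjusted by Benjamini-Hochberg across all tested probe sets, threshold 0.05) fitted genotype alone (2 residual degrees of freedom), genotype with the replicate block (1, and 10.7 borrowed), and set with a genotype term. The fits were also run on data simulated with independent noise, which cannot check that assumption for these arrays.

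The replicate numbers were taken to pair the arrays, since the series states that 2 independent sets were run. Deviations of same-numbered arrays from their group means correlated at 0.856. Nothing states that sets came from separate plants, so p-values cover only array-to-array spread, which may be technical, and 2 arrays per group limit the precision. Each SE given is limma's moderated SE, which borrows from the spread of other probe sets.

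Names came from the platform annotation and TAIR10.1: 13513 probe sets had 1 gene, 503 several (none of these was named, apart from the member probe set given with both its loci) and 8730 none. No build is named for the probes, so no coordinates are given. Roles of loci without a symbol come from general knowledge. Genes named are all members, AAF, listed genes called with the block (at most 4 a list) or else the 2 with the smallest p, the 2 largest set differences called in each list, and the 5 nearest profiles. The tissue markers, SAG101, AT3G15870, AT3G10040 and the chromosomal neighbours were named after their values were seen. Members, lists and tests were chosen with earlier results of these data known. Alternatives were other pseudocounts, filters and normalizations, no intensity trend, no genotype term and each array left out. Sequences were not used here.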

Additional observations from a re-analysis of the deposited data

How the results depend on the processing

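The replicate block decides the genotype counts. limma on genotype alone called 0 probe sets and 0 pathway genes under every other setting and with each array left out, and the block gave 210 and 3. With the block and pseudocounts of 1 and 100 the counts were 76 and 276 probe sets and 2 and 3 pathway genes. Without the filter they were 18 and 1, and with a mean of at least 250 they were 233 and 2. Quantile normalization gave 292 and 3, median centring 373 and 3, and no intensity trend 21 and 1. The cause of these changes was not tested. Leaving out 1 array left the set contrast without a genotype term, and it then called 2331 to 3822 probe sets (5350 with all arrays), 1 to 4 pathway genes (6 with all) and 0 members (1 with all). The lowest counts, 2331 and 1, came without AAF-OX replicate 1, and the highest, 3822 and 4, without AAF-OX replicate 2. Dropping only the genotype term also gave 0 members. The set difference of AT3G02630 then ran from -0.61 (Col-0 replicate 2 left out) through -0.34 (AAF-OX replicate 1 left out) to 1.88, and that of AT5G16240 from -0.0010 to 0.44, since genotype and set mix in 3 arrays. The genotype difference of AT3G02630 ran from -2.67 to -1.77 with arrays left out and from -2.48 to -2.01 over the pseudocounts and normalizations, and that of AT5G16240 from -0.51 to -0.22 and from -0.45 to -0.31. The dim probe sets had no settled sign, at -0.53 to 0.27 for AT3G02610 and AT3G02620 and -0.25 to 0.11 for AT5G16230. Their set differences depended on the pseudocount, at -2.57 and 0.76 with a pseudocount of 1.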
